A study of Mus musculus with 6 samples.

Results

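Toll-like receptors were described across the myeloid cells of the adult mouse brain. The genes were taken by symbol, Tlr1, Tlr2, Tlr3, Tlr4, Tlr5, Tlr6, Tlr7, Tlr8, Tlr9 and Tlr13, which makes 10 of the 32285 genes listed. Each symbol matched 1 gene, and all 10 were counted in every library. The data were unique molecular identifier (UMI) counts from 6 droplet single-cell libraries of 3 male C57BL/6J mice, postnatal day 89. Whole brains were dissociated mechanically with a cold Dounce homogenizer, and any live CD45+/CD11b+ cell was sorted, a gate that holds microglia, other brain macrophages and blood myeloid cells. Cells of each mouse were loaded on both the V3.0 and the V3.1 version of the 10x 3′ kit. Mouse 2 was handled with inhibitors of transcription and translation (actinomycin D, triptolide and anisomycin; DNC-INHIB), whereas mice 1 and 3 had none (DNC-NONE), so inhibitors and mouse cannot be told apart.

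Toll-like receptors sense microbial and self molecules and start innate immune responses. Receptors at the cell surface (Tlr1, Tlr2, Tlr4, Tlr5, Tlr6) mainly see lipids and proteins of microbial envelopes, while those of endosomes (Tlr3, Tlr7, Tlr8, Tlr9, Tlr13) see nucleic acids. All but Tlr3 signal through the adaptor Myd88; Tlr3 uses Ticam1 (TRIF), and Tlr4 can use both. In the brain, microglia are the cells best known for their use.

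The libraries held 6275898 to 18872816 UMIs and 29412 barcodes, of which 19725 passed the filter on genes, UMIs and mitochondrial share. The V3.0 library of mouse 3 stood apart: 21.5% of its barcodes passed, against 70.0% to 76.8% in the other 5. Between libraries, 98 barcode sequences were seen more than once, 1 to 14 per pair. Marker UMIs placed 18184 cells as microglia, 52 as border macrophages (Mrc1, Cd163, Pf4 and the like) and 274 as neutrophils, and left 1215 in no gate. The neutrophil gate was widened after the marker UMIs had been seen, because as first written it held 9 cells, and no Toll-like receptor value was used for this. Border macrophages were few, 15, 29 and 8 in mice 1, 2 and 3, so their values are coarse. Microglial markers stood at 13.1% of their microglial level in border macrophages and at 0.503% in neutrophils. The gates themselves limit these markers, so both values are bounded by the gates and do not measure purity.

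In microglia, 9 of the 10 genes were measured in every mouse and Tlr8 was almost absent. Values are CPM, a gene's UMIs scaled to the same total in every sample, which count 3′ ends and so need no correction for gene length, although capture can differ between genes. Tlr7, the single-stranded RNA sensor, was highest, at 177, 192 and 173 CPM in mice 1, 2 and 3 (mean 181 ± 10.2, SD, n = 3 mice). Tlr3, the double-stranded RNA sensor, followed at 135, 116 and 126 CPM (126 ± 9.26). Tlr13, which sees bacterial ribosomal RNA, came next at 96.3, 79.5 and 86.5 CPM (87.5 ± 8.44). Over both kits of a mouse, these 3 nucleic acid sensors did not overlap with each other, and Tlr7 and Tlr3 were above every surface receptor in every library. Tlr13 was above the surface receptors in each V3.1 library but not in the V3.0 libraries of mice 2 and 3, where it lay at 73.3 and 71.1 CPM beside 74.9 and 76.8 CPM for Tlr2.

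Among surface receptors, Tlr2, the partner of Tlr1 and Tlr6 in sensing lipoproteins, lay at 69.8, 73.7 and 76.5 CPM (73.3 ± 3.38). Tlr4, the lipopolysaccharide receptor, lay at 63.6, 74.4 and 70.2 CPM (69.4 ± 5.45). Tlr2 and Tlr4 overlapped over the mice. The co-receptors Tlr1 (20.8 ± 2.57 CPM) and Tlr6 (17.4 ± 1.41) overlapped too, as did the flagellin receptor Tlr5 (5.81 ± 0.748) and the CpG DNA sensor Tlr9 (4.22 ± 0.806). The last pair depended on the kit: Tlr9 averaged 1.92 CPM with V3.0, below every Tlr5 value there (4.53 to 6.24 CPM), and 6.11 CPM with V3.1, where the pair overlapped. Tlr8 gave 3 UMIs in 2 of 18184 microglia. Together the 10 genes made 594, 579 and 582 CPM in mice 1, 2 and 3, of which Tlr7 was 31.1% and Tlr3 21.4% of the pooled UMIs.

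**Figure D1:**
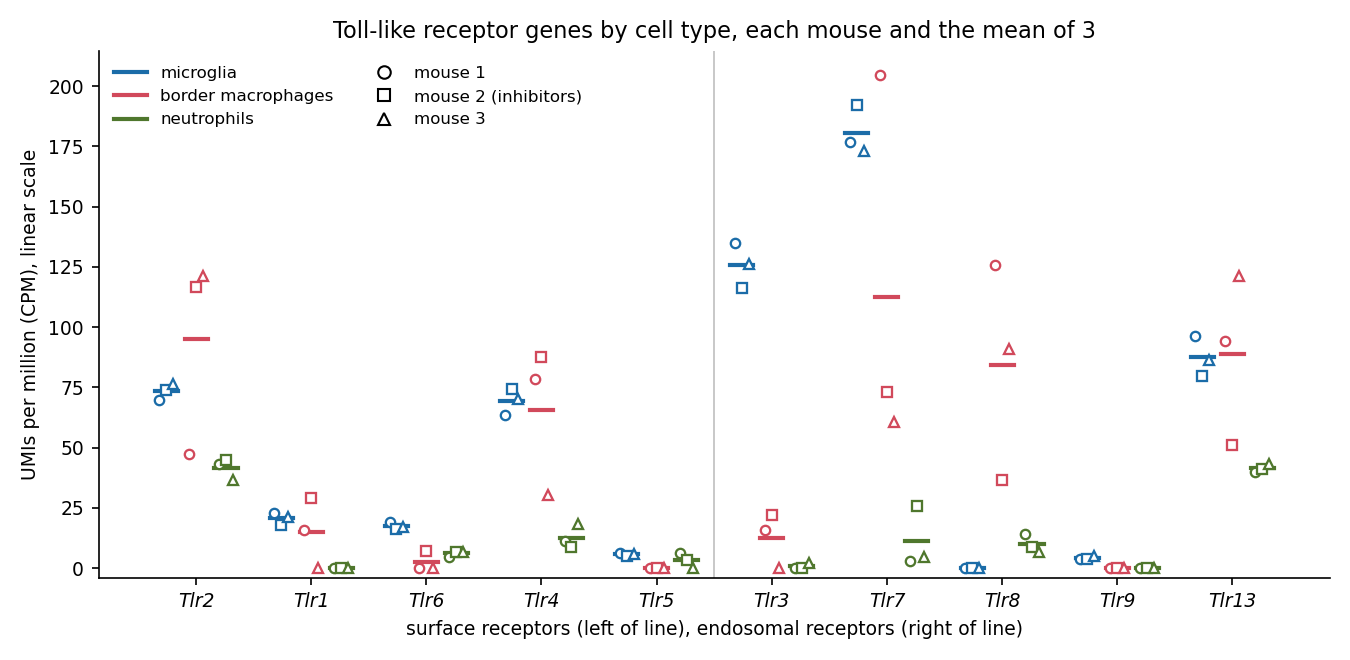
Levels of the 10 genes in CPM (vertical, linear) by gene (horizontal). Points are mice and short lines the mean of 3 mice, in microglia (blue), border macrophages (red) and neutrophils (green). Tlr3 and Tlr7 stand highest in microglia (means 126 and 181 CPM), while Tlr8 is near 0 there and lies at 84.4 CPM in border macrophages.

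Detection per cell followed the levels. Of the microglia, 44.9% (95% exact binomial interval 44.2 to 45.7) held a UMI of Tlr7, 33.1% of Tlr3, 25.3% of Tlr13 and 21.3% each of Tlr2 and Tlr4. Intervals and floors given here cover counting error only. Free RNA of neurons was gauged by Snap25, a neuronal gene, which was seen in 0.203% of microglia (median 3498 UMIs per cell). None of the 274 neutrophils (median 5568 UMIs) held it, which allows a share of up to 1.09%. This gauge does not cover RNA of neutrophils: S100a8 was seen in 68.9% and S100a9 in 71.0% of microglia. How much of that was free RNA was not tested. Tlr9, at 1.44% of microglia, was above the Snap25 share and Tlr8, at 0.0110%, was below it. With each cell thinned to 2000 UMIs, which left out 746 microglia, the share for Tlr7 was 29.5% and for Tlr3 21.3%. At full depth 50.5% of microglia held UMIs of at least 2 of the genes, and 16.3% held none. Of the neutrophils, which were deeper, 51.5% held none. After thinning, 32.9% of microglia, 40.4% of border macrophages and 77.4% of neutrophils held none.

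**Figure D2:**
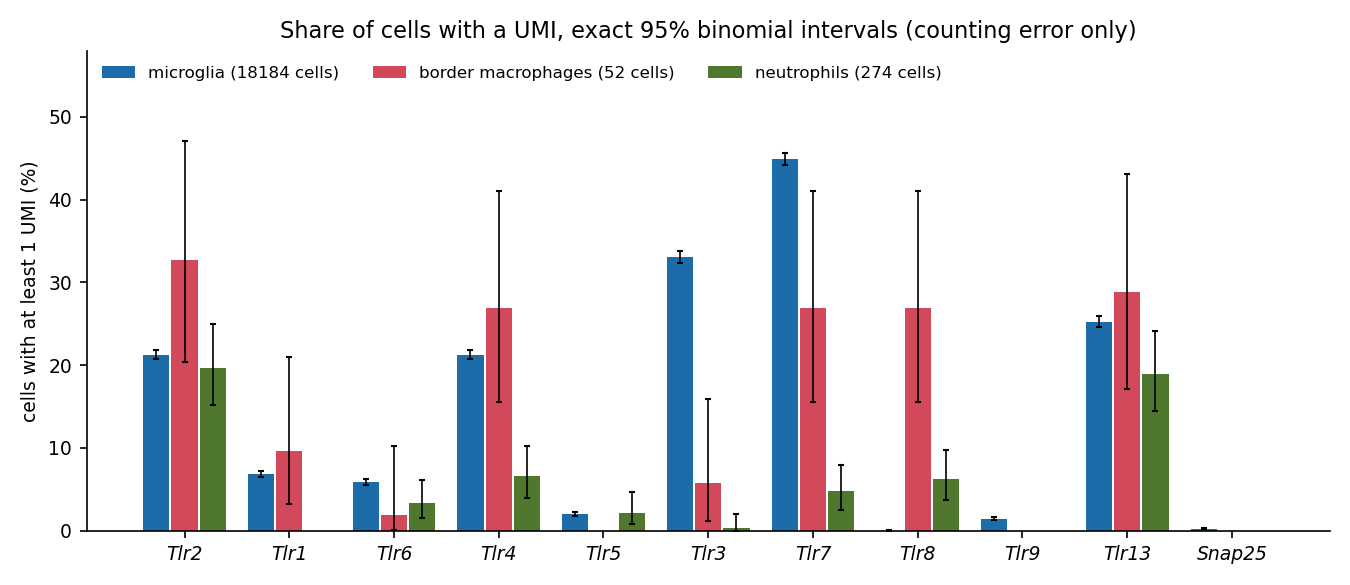
Share of cells with at least 1 UMI (vertical, percent) for each gene and for the neuronal gauge Snap25, in microglia, border macrophages and neutrophils. Bars are pooled cells of 3 mice with exact 95% binomial intervals, drawn where the share is above 0. The intervals of the 52 border macrophages are wide, and Tlr8 is seen in 26.9% of them against 0.0110% of microglia.

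The cell type comparison asked how the receptors of microglia differ from those of the other sorted myeloid cells. UMIs were summed per mouse and type and tested with edgeR's quasi-likelihood test (Benjamini-Hochberg adjustment over all genes, mouse as a block, TMM scaling), and a gene was called past an adjusted p of 0.05 and a log2 fold change of 0.58. Of the 10 members, 7 passed the low-count filter, and Tlr5, Tlr6 and Tlr9 did not. Scaling bears on neutrophils, since 47.5% to 49.8% of their UMIs came from the 13 neutrophil marker genes, with S100a8 and S100a9 alone at 37.4% to 39.5%. TMM raised the log2 fold changes of neutrophils over microglia by 1.49 relative to plain UMI totals, those of neutrophils over border macrophages by 1.20, and those of border macrophages over microglia by 0.29. Of all genes called, markers included, 45.5% were higher in neutrophils than in microglia with TMM and 14.3% with totals. The same shares were 53.2% and 18.3% for neutrophils over border macrophages, and 55.6% and 34.2% for border macrophages over microglia. Directions that part between the scalings are given under both.

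In border macrophages, 2 of the 7 tested members were called against microglia, 1 higher and 1 lower. Of all genes tested 14.3% were called, 7.98% higher and 6.34% lower. The higher one was Tlr8, a sensor of RNA breakdown products. It gave 8, 5 and 3 UMIs in the border macrophages of mice 1, 2 and 3, that is 126, 36.5 and 90.9 CPM, while the microglia of the same mice gave 1, 2 and 0 UMIs. The groups did not overlap. From pooled UMIs the level was 1496 times the microglial one, with an exact 95% counting interval of 428 to 8014. Tlr8 passed the low-count filter only through border macrophages and so had to differ, and no p is given for it. Among the 6 other tested members 1 was called. The 16 UMIs lay in 14 of 52 cells, or 26.9%. Tlr8 lies at chrX:167242696-167264329 (GRCm38, minus strand), 40599 bases from its neighbour Tlr7 at chrX:167304929-167330558, and no annotated gene overlaps either.

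Because Tlr8 is the member that separated the cell types most, the 250 bases before its RefSeq start (GRCm38.p6, chrX:167264330-167264579, minus strand) are shown 5′ to 3′. Capitals mark the letters GAGGAA on either strand, the core that PU.1 and other ETS factors of myeloid cells bind.
Tlr8 promoter: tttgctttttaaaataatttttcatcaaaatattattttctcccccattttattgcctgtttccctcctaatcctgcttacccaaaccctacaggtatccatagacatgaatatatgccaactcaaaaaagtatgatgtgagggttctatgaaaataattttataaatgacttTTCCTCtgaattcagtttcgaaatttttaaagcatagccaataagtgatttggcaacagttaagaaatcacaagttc
The window holds GAGGAA once, on the opposite strand, and 23.3% of 32851 promoter windows of the same length hold it at least once. It stood in 4 of the 10 windows of the 8 members that had a RefSeq window, 1 window each of Tlr1, Tlr8, Tlr9 and Tlr13. A match is a description of the letters and not a bound site.

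Tlr3 was the member that fell in border macrophages. It gave 15.7, 21.9 and 0 CPM in mice 1, 2 and 3. Each lay below the 135, 116 and 126 CPM of microglia (log2 fold change −2.57 ± 0.57 SE). Tlr3 passed the low-count filter through microglia, where it was higher, so no p is given for it. The groups did not overlap. In pooled UMIs (4 against 8204) microglia stood 7.31 times higher, with a counting interval of 2.85 to 26.8. The border macrophage level was 13.7% of the microglial one, beside 13.1% for the summed microglial markers in the same cells. That sum is uneven, since Fcrls gave 215 of its 497 UMIs. Among the other markers, P2ry12 gave 146 against 3273 CPM and Tmem119 94.2 against 1293 CPM, so the sum is no firm yardstick for Tlr3. The part of RNA from microglia in these 4 UMIs was not tested. Tlr3 lies at chr8:45395665-45411080 (GRCm38, minus strand), where the antisense gene Gm45542 overlaps it on the plus strand.

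The other members tested were not called in border macrophages. Tlr2 gave 47.2, 117 and 121 CPM and Tlr4 78.6, 87.6 and 30.3 CPM, both overlapping with microglia. Tlr13 (94.4, 51.1 and 121 CPM) and Tlr1 (15.7, 29.2 and 0 CPM) overlapped as well. Tlr7 gave 204, 73.0 and 60.6 CPM, above microglia in mouse 1 and below in mice 2 and 3 (log2 fold change −0.51 ± 0.32 SE, edgeR adjusted p = 0.350). With plain UMI totals Tlr7 was called lower (log2 fold change −0.80, adjusted p = 0.0490). Tlr5 and Tlr9 gave no UMI, where 3 UMIs would have been 12.8 CPM, above their microglial levels, so their absence was not detectable at this depth.

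Neutrophils differed from microglia in most members, as they did in most genes. Of the 7 tested members 6 were called with TMM, 2 higher and 4 lower, where 65.1% of all genes were called, 29.6% higher and 35.5% lower. With UMI totals 7 were called, 1 higher and 6 lower, where 85.9% of all genes were called, 12.1% higher and 73.8% lower. The difference lay in Tlr2 and Tlr13, and Tlr8 was higher under both. The 4 lower ones were Tlr1, Tlr3, Tlr4 and Tlr7, and these were lower under both scalings. Tlr7 gave 3.19, 25.8 and 4.55 CPM in the neutrophils of mice 1, 2 and 3 against 177, 192 and 173 CPM in microglia (log2 fold change −2.52 ± 0.29 SE with TMM and −4.01 with UMI totals). Mouse 2 held 15 of the 19 UMIs. Tlr4 gave 11.2, 8.60 and 18.2 CPM, all below microglia (log2 fold change −1.04 ± 0.34 SE). The call for Tlr4 was lost without mouse 2 (log2 fold change −0.74) and with cells of at least 500 genes (−0.39). Tlr7 and Tlr4 passed the low-count filter through the cell types where they were higher, so no p is given for them here.

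Tlr3 and Tlr1 were at or near 0 in neutrophils. Both passed the low-count filter through microglia, where they were higher, so their calls are counted above but no p is given. Tlr3 gave 0, 0 and 1 UMI. With plain UMI totals microglia stood 206 times higher, with a counting interval of 37.0 to 8151, and in the TMM fit 74.1 times higher. The 372 C1q UMIs found in neutrophils, taken as microglial RNA, would bring 1.85 Tlr3 UMIs with them, more than the 1 measured. Tlr1 gave no UMI in 274 neutrophils. Its level was therefore at least 11.3-fold lower than in microglia, counted against a floor of 3 UMIs over the group. Tlr9 gave none either, at least 2.27-fold lower by the same floor, and was not tested. These bounds rest on plain UMI totals. With the neutrophil marker genes left out of the totals they fell to 5.82-fold for Tlr1 and 1.17-fold for Tlr9, and after the TMM shift to 4.02-fold for Tlr1, while the floor then lay above the microglial level of Tlr9, so that no lower level was shown for Tlr9.

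Tlr2 and Tlr13 were the most abundant members of neutrophils, with 69 and 68 of the 210 Toll-like receptor UMIs, that is 32.9% and 32.4%. Tlr2 gave 43.0, 44.7 and 36.4 CPM, below the 69.8, 73.7 and 76.5 CPM of microglia in each mouse. With TMM it was called higher in neutrophils (log2 fold change 0.66 ± 0.23 SE, edgeR adjusted p = 0.00875) and with UMI totals lower (−0.83, adjusted p = 0.000146). The higher call was also lost with DESeq2 (adjusted p = 0.0566), without the count filter (0.0573), without mouse 1 (0.116), without mouse 2 (0.0612), and with 1 profile per library, where the log2 fold change was 0.53. When the 13 neutrophil marker genes were left out of the totals, Tlr2 gave 84.1, 85.2 and 72.6 CPM against 69.8, 73.8 and 76.6 CPM, and the groups overlapped. Tlr13 lay at 39.8, 41.3 and 43.2 CPM, with a log2 fold change of 0.39 ± 0.23 SE (adjusted p = 0.126) with TMM and −1.11 (adjusted p = 2.16e-07) with UMI totals. No direction is therefore given for Tlr2 or Tlr13.

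**Figure D3:**
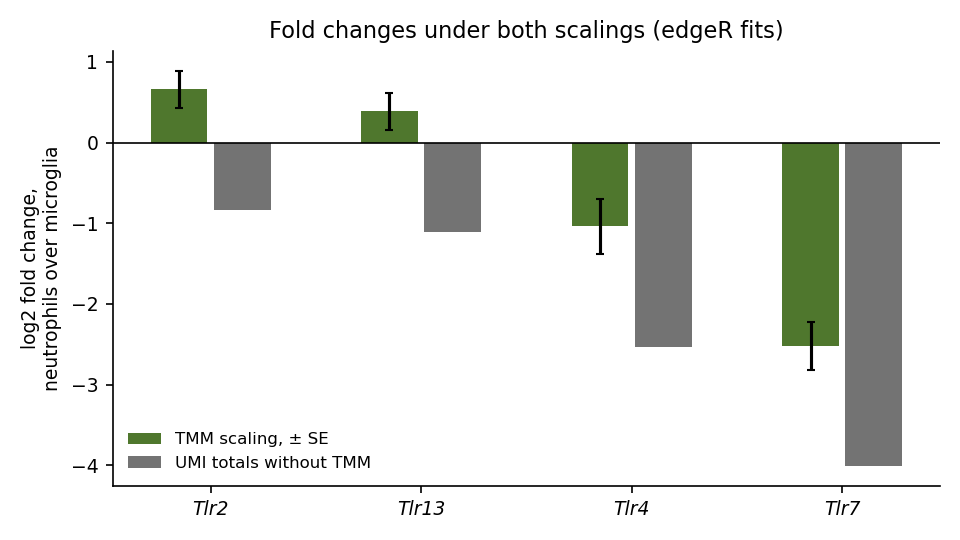
Log2 fold change of neutrophils over microglia (vertical) for 4 members, fitted by edgeR with TMM scaling (green, bars ± SE) and with plain UMI totals (grey). Tlr4 and Tlr7 are negative under both, while Tlr2 (0.66 and −0.83) and Tlr13 (0.39 and −1.11) change sign.

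Tlr8 was also higher in neutrophils than in microglia, at 14.3, 8.60 and 6.83 CPM against 0.0459, 0.0778 and 0 CPM, with no overlap. Pooled UMIs (17 against 3) gave a ratio of 225 with a counting interval of 65.2 to 1200, and 0.00114 UMIs would come with microglial RNA. That ratio rests on plain UMI totals, and the TMM fit gave 444-fold. The 17 UMIs lay in 17 of 274 cells. Tlr8 had passed the filter through border macrophages, so no p is given here either, and without it 5 of 6 tested members were called with TMM. Tlr5 gave 6 UMIs and Tlr6 10 UMIs in neutrophils, beside 0.0853 and 0.249 UMIs from free RNA, but both were under the low-count filter. Against border macrophages, 4 of the 7 tested members were called in neutrophils, all lower (Tlr1, Tlr3, Tlr4 and Tlr7), where 41.7% of all genes were called, 22.2% higher and 19.5% lower. These calls rest on few border macrophages: without mouse 1 the count fell to 1 and without mouse 2 to 2. Tlr8, which passed the filter through border macrophages, was not called between them with TMM (log2 fold change −1.64 ± 0.72 SE). Border macrophages were higher in each mouse. With UMI totals 6 members were called lower, Tlr2 and Tlr8 added, where 50.1% of all genes were called, 9.01% higher and 41.1% lower.

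The genes that work with the receptors were followed as a list of 38, of which 32 were tested between cell types. In neutrophils 9 were called higher and 13 lower than in microglia with TMM, or 68.8% of those tested, near the 65.1% of all genes. With UMI totals 6 were higher and 23 lower, or 90.6% of those tested, near the 85.9% of all genes (12.1% higher, 73.8% lower). Myd88, Irak4 and Tollip were then no longer called higher. The genes named next were called the same way under both scalings. Several had to differ because of the low-count filter, so their calls only describe the levels. Lbp, Cd36, Irak3 and Irf7 were too low in microglia to pass it there, and Cd14, Cd180 and Irf8 were too low in neutrophils. The same holds for Cd36 and Irf7 in border macrophages over microglia, and for Lbp between neutrophils and border macrophages. The lower ones were led by Ly86 (MD-1, 21.2 against 2203 CPM), the transcription factor Irf8, the receptor Cd180 (RP105), which pairs with MD-1, and the lipopolysaccharide co-receptor Cd14 (10.3 against 408 CPM). The higher ones were led by Lbp, which carries lipopolysaccharide (49.1 against 0.0610 CPM), the scavenger receptor Cd36, the inhibitory kinase Irak3 (43.1 against 4.52 CPM) and Irf7. In border macrophages 2 were higher and 4 lower than in microglia, 18.8% of those tested beside 14.3% of all genes. With UMI totals 2 were higher and 9 lower, 34.4% beside 18.9% of all genes (6.42% higher, 12.5% lower), and without mouse 2 or without mouse 3 the count fell from 6 to 3. Cd36 (141 against 0.351 CPM) and the interferon factor Irf7 (42.8 against 5.20 CPM) rose there, while Cd180, the endosomal transporter Slc15a3, the factor Irf5 and Ly86 fell. Between neutrophils and border macrophages 8 were higher and 9 lower with TMM, 53.1% of those tested beside 41.7% of all genes (22.2% higher, 19.5% lower). With UMI totals 3 were higher and 16 lower, 59.4% beside 50.1% of all genes (9.01% higher, 41.1% lower). Higher were Lbp and Myd88 under both scalings and Traf3 and Irak3 with TMM, and the lower ones were led by Ly86, Irf8, Cd14 and Cd36.

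Over the 9 profiles of mouse and cell type, the 2 genes whose log2 CPM was most like that of Tlr3 were Rhobtb1 and Gclc (Pearson r = 0.998 and 0.992). For Tlr7 they were Ccnt2 and Tmem109 (0.983 and 0.977), for Tlr1 Tbc1d12 and Utp15 (0.999 each), and for Tlr8 Ahnak and Eif3k (0.995 and 0.989). Likeness was lower for Tlr2 (Atp5d and Eif1ax, 0.967 and 0.960), Tlr4 (Gm5086 and Anapc5, 0.961 each) and Tlr13 (Mrpl57 and Zfp687, 0.973 and 0.951). With 3 cell types and 8086 genes to choose from, such values describe the profiles, which share libraries, and nothing further.

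The kit comparison asked whether the 2 versions of the chemistry count the receptors alike in microglia. Of the 9 tested members (Tlr8 was below the filter) 1 was called, Tlr9, where 3.14% of all genes were called. Tlr9 gave 1.37, 2.20 and 2.18 CPM with V3.0 and 7.03, 5.53 and 5.79 CPM with V3.1 in mice 1, 2 and 3. Every V3.1 library was above every V3.0 library, 3.29-fold in the fit (log2 fold change 1.72 ± 0.24 SE, edgeR adjusted p = 0.000923). It stayed called in all 10 alternatives, with log2 fold changes of 1.38 to 2.03. The counts behind it were 17, 31 and 7 UMIs against 66, 64 and 86, so the result did not rest on the poor V3.0 library of mouse 3. After thinning, 0.456% ± 0.114 (SD, n = 3 libraries) of V3.0 microglia and 1.19% ± 0.235 of V3.1 microglia held a Tlr9 UMI.

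Tlr9 lies at chr9:106222598-106226883 (GRCm38, plus strand), and no annotated gene overlaps it. The 250 bases before its RefSeq start (chr9:106222348-106222597, GRCm38.p6, plus strand) are shown to place the gene, with GAGGAA in capitals.
Tlr9 promoter: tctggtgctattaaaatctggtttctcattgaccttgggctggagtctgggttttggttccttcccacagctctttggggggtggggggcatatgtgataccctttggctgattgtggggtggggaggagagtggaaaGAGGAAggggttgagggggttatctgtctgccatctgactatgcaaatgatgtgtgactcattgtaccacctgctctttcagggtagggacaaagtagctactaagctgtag
The letters occur once, on the gene's own strand.

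The other 8 tested members were not called between kits, and the median log2 fold change of the 9 was 0.10, beside 0.00 over all genes. Tlr2 differed by 0.01 ± 0.07 (log2, SE), with kit means of 73.8 and 72.9 CPM, and Tlr4 by 0.03 ± 0.09. Tlr3 was higher with V3.1 in each of the 3 mice, at 122, 112 and 122 CPM against 152, 121 and 127 CPM, and Tlr13 likewise at 92.1, 73.3 and 71.1 against 102, 87.2 and 89.8 CPM. Tlr7 was lower with V3.1 in each mouse, at 187, 200 and 183 against 163, 182 and 171 CPM. None of these 3 passed the test (edgeR adjusted p = 0.153, 0.117 and 0.248). None of the 34 tested pathway genes was called. The numbers pair the libraries, since both came from the same animal, and with mouse as a block the count of called members was again 1.

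**Figure D4:**
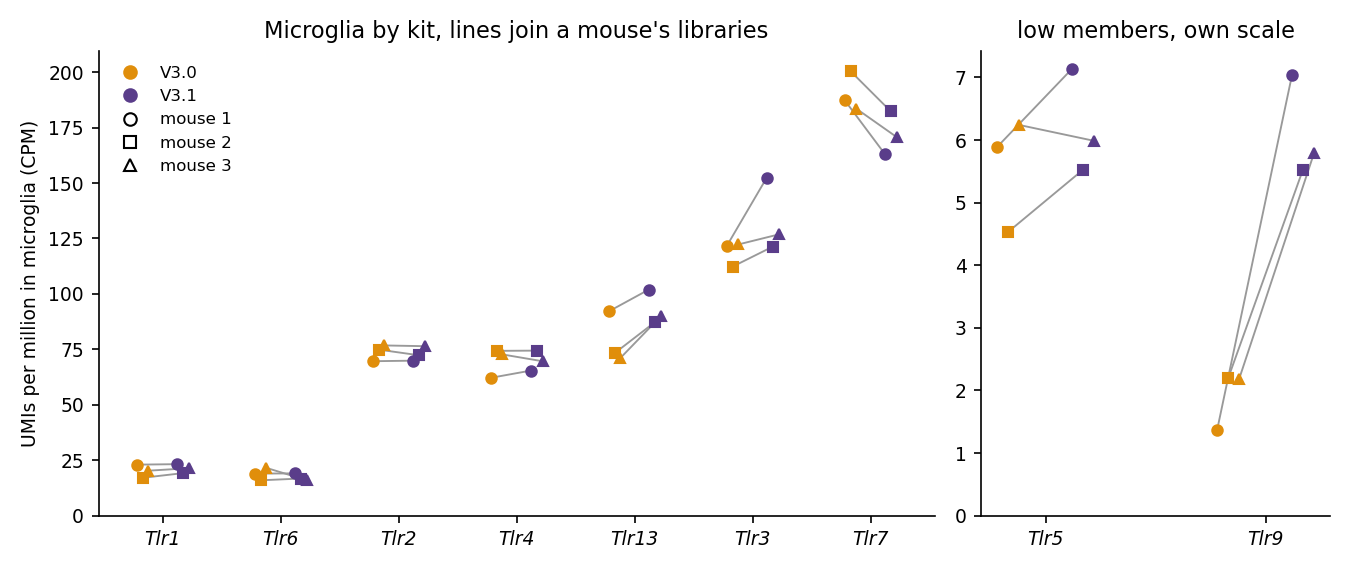
Microglial CPM (vertical) with V3.0 (orange) and V3.1 (purple), 1 point per library, lines joining the libraries of a mouse; the right panel has its own scale. Tlr9 is higher with V3.1 in all 3 mice, at 5.53 to 7.03 CPM against 1.37 to 2.20 CPM, while the points of Tlr2 and Tlr4 overlap between kits.

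The inhibitor comparison asked whether blocking transcription and translation during handling moved the receptors in microglia. Mouse 2 was set against mice 1 and 3, and the lone mouse was assumed to vary like the others. None of the 9 tested members was called, where 0.367% of all genes were, and 1 had an unadjusted p under 0.05. DESeq2 called none either. That member was Tlr1, at 18.0 CPM in mouse 2 and 23.1 and 21.2 CPM in mice 1 and 3 (log2 fold change −0.29 ± 0.12 SE, edgeR adjusted p = 0.663). Tlr7 (192 against 177 and 173 CPM) and Tlr4 (74.4 against 63.6 and 70.2 CPM) were highest in mouse 2. Tlr3 (116 against 135 and 126 CPM) and Tlr13 (79.5 against 96.3 and 86.5 CPM) were lowest there, with edgeR adjusted p from 0.769 to 0.843 for the 4. None of the 35 tested pathway genes was called.

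A few microglia carried many chemokine transcripts. Those with at least 4 UMIs of Ccl3 and Ccl4 together numbered 45 (18, 15 and 12 in mice 1, 2 and 3) and were compared with the 18139 others. Of the 9 tested members 1 was called, Tlr2, where 3.15% of all genes were called. TMM lowered all log2 fold changes here by 0.13 relative to UMI totals, and 42.0% of the genes called were higher with TMM against 59.9% with totals. Tlr2 gave 204, 512 and 245 CPM in chemokine-positive cells (16, 32 and 14 UMIs) against 69.3, 72.7 and 76.0 CPM in the other microglia. The groups did not overlap, and the fitted rise was 3.93-fold (log2 fold change 1.97 ± 0.25 SE, edgeR adjusted p = 3.13e-12). Of the 45 cells 20, or 44.4% (29.6 to 60.0), held a Tlr2 UMI, from 6, 7 and 7 cells of the 3 mice. Chemokine-positive cells were deeper, with a median of 4267 UMIs against 3496, and the part of depth in this share was not tested. A single cell of mouse 2 held 12 UMIs, and without it the pooled level was 261 CPM instead of 313. Without mouse 1 the call was lost (log2 fold change 2.21, adjusted p = 0.0687). Tlr2 lies at chr3:83836272-83841767 (GRCm38, minus strand).

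No other member was called in chemokine-positive microglia. Tlr3 gave 127, 96.0 and 17.5 CPM (10, 6 and 1 UMIs), lower in each mouse than the 135, 116 and 126 CPM of the rest, though the ranges overlapped (log2 fold change −0.71 ± 0.35 SE, edgeR adjusted p = 0.411). Tlr7 gave 229, 128 and 140 CPM and Tlr13 114, 64.0 and 105 CPM, each above the rest in some mice and below it in others. Tlr5 and Tlr9 gave no UMI in the 45 cells, too few to show whether they were lower. Of the 34 tested pathway genes 2 rose, Slc15a3 (404 against 94.0 CPM, log2 fold change 1.94 ± 0.22 SE) and Cd180 (378 against 161 CPM, 1.03 ± 0.21 SE), and none fell.

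Microglia with UMIs of at least 3 of 10 interferon-stimulated genes numbered 395 (126, 164 and 105 in the 3 mice). None of the 9 tested members passed both thresholds against the other 17789 microglia, where 2.29% of all genes did. DESeq2 called 1, and 1 member had an unadjusted p under 0.05 in edgeR. That member was Tlr3 in both, itself known as an interferon-induced gene. It gave 157, 168 and 220 CPM against 134, 115 and 124 CPM, with no overlap between groups (log2 fold change 0.56 ± 0.10 SE, edgeR adjusted p = 9.16e-07), just inside the fold threshold. Of the 395 cells 45.1% (40.1 to 50.1) held a Tlr3 UMI, against 32.8% of the others, at median depths of 3592 and 3496 UMIs. Tlr7 was not called (189, 197 and 137 CPM against 177, 192 and 174 CPM), and neither was Tlr2 (log2 fold change 0.16 ± 0.14 SE) or Tlr13 (0.09 ± 0.13). The median log2 fold change of the 9 members was 0.09, beside −0.04 over all genes tested. Of the 33 tested pathway genes 2 rose, Socs1, an inhibitor of cytokine signalling (25.5 against 8.58 CPM, log2 fold change 1.59 ± 0.32 SE), and again Slc15a3 (138 against 93.9 CPM, 0.60 ± 0.11 SE).

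**Figure D5:**
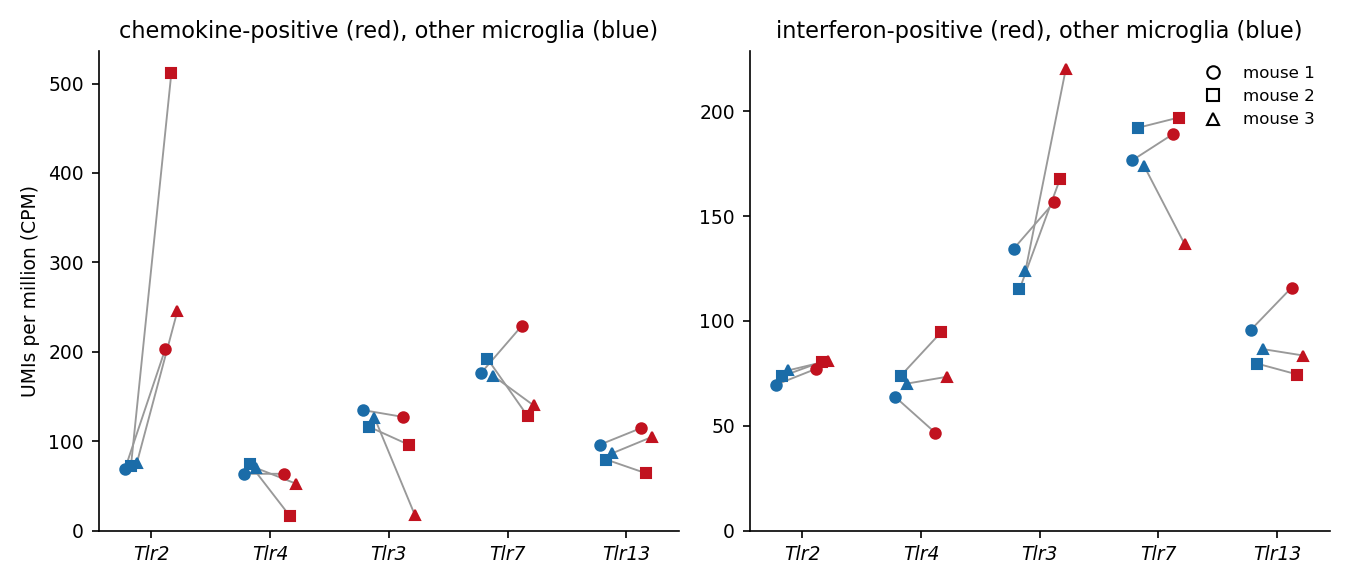
CPM (vertical) of 5 members in chemokine-positive (left, red) and interferon-positive (right, red) microglia and in the other microglia of the same mice (blue); lines join a mouse. Tlr2 is higher in all 3 mice on the left (204 to 512 CPM), and so is Tlr3 on the right (157 to 220 CPM), which stayed inside the fold threshold.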

How the data were processed

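The authors deposited filtered matrices of UMI counts, made with Cell Ranger 5.0.0 on mm10, per the labels. Barcodes were kept when they had between 1000 and 4000 genes, no more than 12000 UMIs, and a mitochondrial share of 15% or less. Gates asked for at least 5 UMIs from at least 3 markers of a type and at most 2 UMIs from each other type (border macrophages and neutrophils needed fewer microglial and monocyte marker UMIs, respectively, than of their own). S100a8 and S100a9 did not count against another type, so gated microglia and border macrophages can hold their UMIs. The UMI limit and the gates stood in for a doublet caller. UMIs were summed per mouse or, between kits, per library, and fitted with edgeR 4.0.16 (TMM, filterByExpr); SE is the absolute log2 fold change over the root of F. DESeq2 1.42.0 was an alternative. Scripts were tested on simulated data. Members, lists and tests were chosen with earlier results of these data known. All 10 members are named; of the pathway list, up to 4 called genes each way; and for each tested member its 2 most alike genes. Libraries of a mouse deviated together (r = 0.362, 0.501 and 0.174). Sequences are RefSeq's and positions GENCODE's, both on GRCm38. Nothing shows separate preparations of a mouse's cells, so p-values between kits measure the spread between libraries.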

Additional observations from a re-analysis of the deposited data

Results flagged for a closer look

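Tlr3 was set apart in 1 of the 6 libraries of microglia: the V3.1 library of mouse 1 gave 152 CPM, while the other 5 gave 112 to 127 CPM (Dixon's test, gap over range 0.638). Of the 10 genes tested in this way, 1 in 20 would be singled out by chance. Counts of genes outside the 10 members also showed a signal in microglia. Tlr12, a relative that senses profilin, gave 1832 UMIs in 9.02% of microglia (28.0 CPM), more than Tlr1 and Tlr6. It gave no UMI in neutrophils, at least 15.4-fold lower against a floor of 3 UMIs with UMI totals, or 5.46-fold after the TMM shift. Tlr12 too passed the low-count filter through microglia, so no p is given for it. Tlr11, another profilin sensor, gave 15 UMIs in 0.0825% of microglia, a share below the 0.203% of the neuronal gauge Snap25.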

How the results depend on the processing

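Border macrophages (52) and chemokine-positive microglia (45) were few, 1 mouse had inhibitors, and a share of 0 in 52 cells allows up to 5.77% (3 counts), so low members there could not be told from absent. With the neutrophil gate as first written (9 cells, 1 member left to test), called members numbered 0 in border macrophages and 1 in neutrophils against microglia, and 1 between neutrophils and border macrophages, where no count filter and a stricter gate each gave 2 and leaving out a mouse gave 1 to 4. Leaving out a mouse gave 0 to 1 called in chemokine-positive and 0 to 1 in interferon-positive microglia, where DESeq2 gave 1; the cause was not tested. Of the other counts of called members, 64 stayed within 1.5 times.

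Log2 fold changes that turned were mostly near 0. In border macrophages over microglia, Tlr13 was −0.084 with 1 profile per library, −0.22 without TMM, −0.11 without a count filter, −0.42 with a stricter gate and −0.050 to 0.29 without a mouse, and Tlr1 −0.99 to 0.67 without a mouse. In neutrophils, without TMM, Tlr2 was −0.83 and Tlr13 −1.11 over microglia, and Tlr13 −0.89 over border macrophages. Tlr2 over border macrophages was 0.0076 with 1 profile per library, 0.63 from 500 genes per cell, 0.034 without a count filter, 0.42 with a stricter gate and −0.41 to 0.51 without a mouse. Between kits, Tlr2 was −0.0098 from 500 genes per cell, −0.0072 without TMM, −0.0007 without a count filter, −0.0055 with the replicate block and −0.012 to 0.039 without a mouse, Tlr4 −0.039 from 500 genes per cell and −0.019 to 0.051 without a mouse, and Tlr6 −0.16 to 0.048. The replicate block raised the genes called between kits from 377 to 584 and changed no member's call. With inhibitors, Tlr2 was −0.012 in V3.1 and Tlr9 0.51 in V3.0 libraries alone, and the 48 genes called became 11 to 117 over the alternatives (16 with DESeq2). Genes called between kits fell to 149 without mouse 2 and 197 without mouse 1. In chemokine-positive microglia 369 genes, markers included, became 24 without mouse 1, 176 without mouse 2, 164 with DESeq2 and 554 with 1 profile per library. Without mouse 2, calls fell from 1171 to 620 for border macrophages over microglia and from 3386 to 2231 for neutrophils over border macrophages. With the first gate the 3 cell type comparisons called 563, 646 and 495 of 1544 genes tested, beside 1171, 5270 and 3386 of 8086. Far fewer genes were tested there, so these counts alone do not show that calls were lost.

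In chemokine-positive microglia, Tlr13 was 0.11 with DESeq2, 0.12 without TMM, 0.10 without the V3.0 library of mouse 3 and −0.14 to 0.14 without a mouse, and Tlr1 −0.12 to 0.94. In interferon-positive microglia, Tlr7 was 0.0087 with 1 profile per library, 0.019 with DESeq2, 0.023 with no replicate block and −0.066 to 0.11 without a mouse, Tlr13 −0.034 to 0.16, Tlr4 −0.16 to 0.30 and Tlr9 −0.37 to 0.98. The scaling by UMI totals and the first gate were chosen as alternatives after the data were seen.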
